A study of Mus musculus with 18 samples.

Results

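Integrins and cadherins are the receptors by which a cell holds on to matrix and to its neighbours, and their RNA was compared between mouse bone marrow stromal cell clones with and without CD34. The members were the probe sets whose platform annotation gave a single gene symbol of the form Itga, Itgb or Cdh followed by 1 or 2 characters (Itg) or a number (Cdh). Of 36701 probe sets on the chip types MG_U74Av2, MG_U74Bv2 and MG_U74Cv2, 77 met that rule, and they named 44 genes of 15964 with a symbol of their own: 26 integrin chains on 45 probe sets, 17 cadherins on 31, and Itgbl1 on 1. Itgbl1 is a secreted protein with integrin-like repeats and no integrin chain, and it is kept apart below.

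Stromal cells are the adherent, fibroblast-like cells of the marrow. They had been isolated from adult marrow as CD34+ or CD34- cells and picked as single-cell colonies, all grown in DMEM with 10% fetal bovine serum. Purity had been checked by sorting analysis for CD34, with other marrow cells named as the possible contaminant; neither strain nor genotype is stated in the labels. The design text speaks of 2 samples. Each of 6 RNAs, 3 from CD34+ and 3 from CD34- clones, went onto all 3 chip types, which made 18 arrays. Whether a group holds RNA of several clones or of 1 is not stated, so that a difference between single clones and a difference of CD34 status cannot be told apart. Levels are quantile-normalized signals in intensity units, and a difference is log2 of signal plus a small offset, CD34+ minus CD34-. A probe set was tested if 3 or more of the 6 arrays read it higher than the 40th percentile of all their probe sets, and it was called, that is, rose or fell in CD34+ clones, at a limma adjusted p under 0.05.

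An integrin is a pair of an alpha and a beta chain. The alpha chain largely sets the ligand: some pairs bind collagen, others laminin, others the RGD motif of fibronectin and vitronectin, and the leukocyte pairs bind proteins on other cells. Inside the cell, talin and kindlin join the beta tail to actin. Classical cadherins bind a like cadherin on the next cell and are anchored by catenins; marrow stromal cells are known for N-cadherin (Cdh2) and cadherin 11.

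Of the 77 probe sets, 39 passed the filter, for 26 of the 44 genes, and 7 were called: 2 rose and 5 fell. The collagen-binding chain Itga11 and the integrin-like Itgbl1 each fell 5.38-fold. The laminin-binding chain Itga3 rose 1.95-fold and N-cadherin, Cdh2, rose 1.69-fold. The shared beta chain Itgb1, at 2 probe sets, and Itgb5, a partner of alpha v, fell 1.35-fold to 1.44-fold. On MG_U74Av2, 5 of 22 members tested were called, against 14.9% of all probe sets tested there. Of these members 2 rose, against 8.21% of all, and 3 fell, against 6.69%. On MG_U74Bv2, 1 of 6 members tested was called, against 1.09% of all. It fell, as did 0.401% of all, and none rose, against 0.685%. This call was Itga11, which passed the filter through its high group alone, so nothing is read from that share. On MG_U74Cv2, 1 of 11 members tested was called, against 0.0936% of all. It fell, as did 0.0535% of all, and none rose, against 0.0401%.

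**Figure D1:**
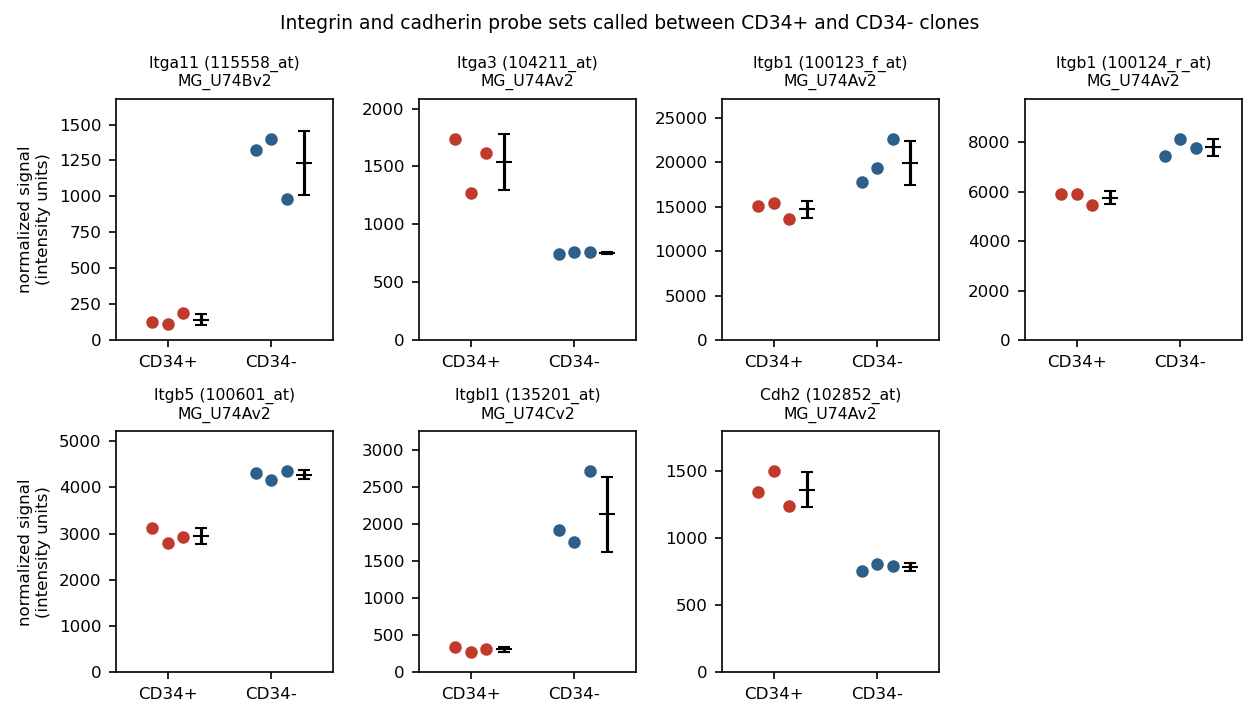
Quantile-normalized signal (vertical axes, intensity units, each starting at 0) of the 7 called probe sets in 3 CD34+ RNAs (red) and 3 CD34- RNAs (blue). Black marks give the mean and SD of each group; the groups do not overlap in any panel, and Itga11 reads 113 to 186 in CD34+ against 982 to 1399 in CD34- RNAs.

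The start regions of the 3 called genes with the largest differences are shown because these genes moved most, Itga11 and Itgbl1 down and Itga3 up. They are RefSeq promoters of mouse build GRCm38.p6, from 250 bases before to 50 after the start site, and 27 of the 44 member genes had an entry. Capitals mark matches on either strand to motifs searched by their letters. The GC box was searched as GGGCGG, and the E-box known to be bound by Snail and Zeb repressors as CACCTG. The site of the factor AP-1 was searched as TGANTCA, and the TATA box by the letters TATAAA. No matches overlapped in these windows. Itga11 lies at chr9:62677605-62677904 (plus strand), Itgbl1 at chr14:123659890-123660189 (plus strand) and Itga3 at chr11:95076665-95076964 (minus strand).
Itga11: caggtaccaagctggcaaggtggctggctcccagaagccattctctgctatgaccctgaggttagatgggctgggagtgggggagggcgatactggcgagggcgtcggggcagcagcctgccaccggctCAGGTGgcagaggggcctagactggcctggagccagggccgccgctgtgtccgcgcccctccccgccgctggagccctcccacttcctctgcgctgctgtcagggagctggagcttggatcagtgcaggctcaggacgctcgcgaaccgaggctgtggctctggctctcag
Itgbl1: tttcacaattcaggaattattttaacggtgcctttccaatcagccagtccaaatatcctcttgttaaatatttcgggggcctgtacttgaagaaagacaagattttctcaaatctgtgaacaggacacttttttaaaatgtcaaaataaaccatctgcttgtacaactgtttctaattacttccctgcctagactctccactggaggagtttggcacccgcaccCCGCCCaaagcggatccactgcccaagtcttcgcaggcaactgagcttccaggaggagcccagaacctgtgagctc
Itga3: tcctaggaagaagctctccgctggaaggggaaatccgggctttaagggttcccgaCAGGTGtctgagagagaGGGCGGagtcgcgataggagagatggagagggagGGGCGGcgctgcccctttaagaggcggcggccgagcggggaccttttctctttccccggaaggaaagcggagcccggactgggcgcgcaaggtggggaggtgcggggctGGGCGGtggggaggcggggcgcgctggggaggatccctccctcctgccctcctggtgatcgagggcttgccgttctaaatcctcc

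The Itga11 window held an E-box match whose first base lay 121 bases before the start site. Itga3 had 2 windows in the table, and the one at the start of the gene is shown; it held an E-box match 195 bases before its start site, and 3 GC boxes. The Itgbl1 window held 1 GC box, 26 bases before the start site. G and C made up 68% of the Itga11 window and 45.3% of the Itgbl1 window. Of all 32851 windows in the table, 35.7% held a GC box, 20.2% the E-box, 13.6% the TATA box and 7.81% the AP-1 letters, and none of the 3 windows shown held either of the last motifs.

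Cd34, the gene that chose the clones, was first read as a check of the labels. Its probe set 160358_at read 938, 787 and 919 in CD34+ RNAs and 172, 59.9 and 128 in CD34- RNAs, and 97773_at read 860, 827 and 922 against 85.3, 202 and 105. Both rose, by 2.50 and 2.39 on the log2 scale (limma adjusted p = 0.000374 and 0.000334), in the direction of the labels. Probe set 160358_at passed the filter through the CD34+ arrays alone, so that once tested it had to differ. In CD34- RNAs it ranked at the 22.3rd to 39.4th percentile. The other, 97773_at, passed on 4 arrays.

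Of the stromal markers, 9 of 10 measured passed the filter, 1 rose and 5 fell (Col1a1, Col1a2, Cxcl12, Pdgfra and Eng). All 10 were read on MG_U74Av2, where 8.21% of all probe sets tested rose and 6.69% fell. Cd44 and Alcam were higher in CD34+ clones, with log2 differences of 0.50 and 0.57 (limma adjusted p = 0.0339 and 0.0787, so that Cd44 rose and Alcam was not called). Thy1 did not pass (57.3 ± 42.5 against 39.5 ± 18.4, SD, n = 3 each). The summed stromal signal was 51878 to 55177 in CD34+ RNAs and 92165 to 97331 in CD34- RNAs, of which the type I collagen chains made up most. The pan-leukocyte gene Ptprc read 21.1 to 23.9 in CD34+ and 18.3 to 28.9 in CD34- RNAs and did not pass. Of all 9 blood cell and macrophage markers, given with the leukocyte chains below, 4 did pass. On MG_U74Av2 the 3' to 5' signal ratio, a sign of RNA quality, did not overlap between groups (0.700 to 0.771 against 0.802 to 0.832 for Gapdh). For actin it did not overlap on MG_U74Av2 (1.03 to 1.09 against 1.098 to 1.198) or on MG_U74Cv2, the chip type of Itgbl1 (0.951 to 1.02 against 1.025 to 1.029). The RNA concentrations of the labels did not overlap either (0.421 to 0.721 against 0.989 to 1.38 µg/µl). Their part in the differences below was not tested. In these bulk RNAs, fewer cells that express a gene and less RNA per cell cannot be told apart.

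Of 3 tested probe sets of collagen-binding chains, 1 was called. Itga11, whose pair with beta 1 binds fibrillar collagen on fibroblasts, read 127, 113 and 186 in CD34+ RNAs 1, 2 and 3 against 1322, 1399 and 982 in CD34- RNAs. All CD34- values lay far above all CD34+ values. It fell by 2.43 on the log2 scale (SE 0.25, 95% interval -2.99 to -1.87, limma adjusted p = 0.00685), with 23% of all probe sets tested on MG_U74Bv2 having groups that did not overlap. Within each array, which needs no scaling, Itga11 ranked at the 21.2nd to 31.3rd percentile in CD34+ RNAs and at the 72.9th to 81.5th in CD34- RNAs. It passed the filter through the CD34- arrays alone (3 of 3, against 0 of 3 CD34+ arrays), so that a tested Itga11 had to differ. On MG_U74Bv2 the CD34+ arrays were all washed on fluidics station 1 with CD34- RNA 1, and the other CD34- arrays on station 2. With the station as a block the difference was -2.53 (limma adjusted p = 0.204), and within station 1 it was also -2.53 (limma adjusted p = 0.117). Both rest on CD34- RNA 1 as the single CD34- array of station 1, which the fit assumes to vary like the CD34+ arrays. Without CD34- RNA 1 it was -2.38 (adjusted p = 0.0592).

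The other collagen-binding chains did not pass the test. Itga1, a receptor of collagen IV and other collagens, had 1 of 2 probe sets tested (168284_i_at), which read 290, 89.3 and 102 against 1033, 214 and 514, so that the groups overlapped (log2 -1.30, SE 0.53, limma adjusted p = 0.528). Itga10, a chain best known from cartilage, lay the other way, at 864, 952 and 680 against 192, 690 and 475 (log2 0.86, SE 0.40, limma adjusted p = 0.584). CD34- RNA 2 reached the CD34+ range. Itga2 lay below the 40th percentile on all 6 arrays (110 to 172 against 101 to 136), as did the second probe set of Itga1 (84.8 to 115 against 56.8 to 73.8). The intervals of Itga1 (-2.49 to -0.11) and Itga10 (-0.04 to 1.77) do not exclude large differences.

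Among laminin-binding chains, Itga3, whose pair with beta 1 binds laminins of basement membranes, rose. Probe set 104211_at read 1737, 1272 and 1612 against 746, 760 and 763. The CD34- RNAs lay close together and all below the lowest CD34+ RNA (log2 0.97, SE 0.14, limma adjusted p = 0.00209). A second probe set, 104210_at, read 738, 915 and 746 against 422, 529 and 697, without overlap but not past the threshold (log2 0.52, SE 0.18, limma adjusted p = 0.0929). It was called when CD34- RNA 3, the highest of its group, was left out (log2 0.69, adjusted p = 0.0255). The first probe set kept its call in all 17 other processing settings tried, among them the comparison within station 2, which on MG_U74Av2 held 2 arrays of each group.

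Itga7, a laminin receptor of muscle, was tested at 2 probe sets, which read 336 to 430 against 191 to 502 and 229 to 338 against 81.9 to 280, and differed by 0.15 and 0.54 with overlapping groups (limma adjusted p = 0.766 and 0.346), and a dimmer, untested one read 19.6 to 24.2. Itga6, the other main laminin-binding alpha chain, did not reach the 40th percentile on any array, and read 139, 159 and 103 against 30.6, 83.2 and 35.3. The groups did not overlap, and in a fit without the filter it differed by 0.90 on the log2 scale (limma adjusted p = 0.077, the lowest among the members dimmer than the filter). Itgb4, the partner of Itga6 in hemidesmosomes, read 61.3 to 123 against 46.3 to 82.6 and was not tested. All 4 tested probe sets of the laminin class, which stand for 2 genes (Itga3 and Itga7), were higher in CD34+ clones. Their median was 0.53, against 0.01 over all probe sets tested on MG_U74Av2, and 1 of them was called.

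RGD-binding alpha chains had 6 tested probe sets of 4 genes, none called by limma and 1 of them (Itga8) at an unadjusted p under 0.05. Such a p was reached by 2233 of 7634 probe sets tested on MG_U74Av2, 1268 of 7737 on MG_U74Bv2 and 661 of 7481 on MG_U74Cv2. Nothing is therefore read from 1 such probe set in a class, here or below. Itgav, the alpha chain of the vitronectin receptors, read 8550, 8263 and 8669 against 7586, 8102 and 6744 at 104386_f_at, a probe set whose name marks probes shared within a sequence family. All CD34+ values lay above all CD34- values, by 0.19 on the log2 scale (SE 0.09, limma adjusted p = 0.186). At its 2 further probe sets, which read 785 to 1143 and 239 to 529, the groups overlapped (log2 -0.08 and 0.00). The widest of the 3 intervals ran from -0.57 to 0.57. Itga5, the alpha chain of the fibronectin receptor, read 948, 739 and 895 against 1036, 973 and 1312, again without overlap (log2 -0.34, SE 0.15, limma adjusted p = 0.176).

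Itga8, a receptor of nephronectin, read 785, 1079 and 1447 against 549, 730 and 619 on MG_U74Cv2 (log2 0.69, SE 0.29, limma adjusted p = 0.556). Its 2 probe sets on MG_U74Av2 did not pass the filter (15.1 to 77.6). Of these, 100313_at lay the other way without overlap, at 19.8, 46.5 and 15.1 against 48.7, 57.2 and 77.6. In a fit without the filter 100313_at differed by -0.53 (limma adjusted p = 0.169), and 100314_f_at overlapped. Itga2b, the alpha chain of the platelet fibrinogen receptor, read 553, 332 and 390 against 245, 296 and 208 (log2 0.58, SE 0.34, limma adjusted p = 0.705). Of 5 platelet and megakaryocyte markers measured, among them Pf4 and Gp9, 0 passed the filter, and their summed signal was 373 to 646 against 443 to 571. The alpha 4 and alpha 9 class, which binds VCAM-1, tenascin and osteopontin, had 6 probe sets and none passed: Itga4 read 3.06 to 137 over its 4 probe sets and Itga9 48.9 to 337 over its 2.

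Among the beta chains, 2 of 4 genes had called probe sets, Itgb1 and Itgb5, and these fell. Itgb1, which pairs with most of the alpha chains above, read 15053, 15462 and 13669 against 17757, 19340 and 22646 at 100123_f_at. The name of this probe set carries the same mark of shared probes as 104386_f_at of Itgav. At 100124_r_at Itgb1 read 5922, 5885 and 5448 against 7450, 8125 and 7769. Neither probe set overlapped, and they fell by 0.43 each (SE 0.10 and 0.08, limma adjusted p = 0.0166 and 0.00667). On MG_U74Cv2, 141172_at read 532, 745 and 1627 against 523, 1785 and 2296, with a wide spread in both groups (log2 -0.54, SE 0.54, limma adjusted p = 0.845), and with the station as a block the difference turned to 0.65. The call of 100123_f_at was lost in 4 of 17 settings: without CD34+ RNA 3 (log2 -0.38, adjusted p = 0.0655), within station 2 (log2 -0.36, adjusted p = 0.0603), after scaling every array to one median (log2 -0.44, adjusted p = 0.0798) and without the intensity trend (log2 -0.43, adjusted p = 0.0803). In contrast, that of 100124_r_at was kept in all 17.

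Itgb5, which joins alpha v to form a vitronectin receptor, read 3128, 2788 and 2933 against 4307, 4156 and 4346 at 100601_at. It fell by 0.53 (SE 0.09, limma adjusted p = 0.00465), and kept its call under all 17 settings. A dimmer probe set of it, 162218_f_at, read 559, 577 and 395 against 735, 897 and 473, with overlap (log2 -0.40, SE 0.23, limma adjusted p = 0.296). Itgb3 and Itgb8, further partners of alpha v, did not pass the filter at any of 4 probe sets and read 7.02 to 297. So 3 of 5 tested probe sets of the beta chains, which stand for 2 genes, were called. All 3 were lower and on MG_U74Av2, where 6.69% of all probe sets tested fell, and 2 of them were of Itgb1. The median of the 5 was -0.43, against 0.01 over all tested on MG_U74Av2 and -0.0038 over all tested on MG_U74Cv2, which held 141172_at.

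**Figure D2:**
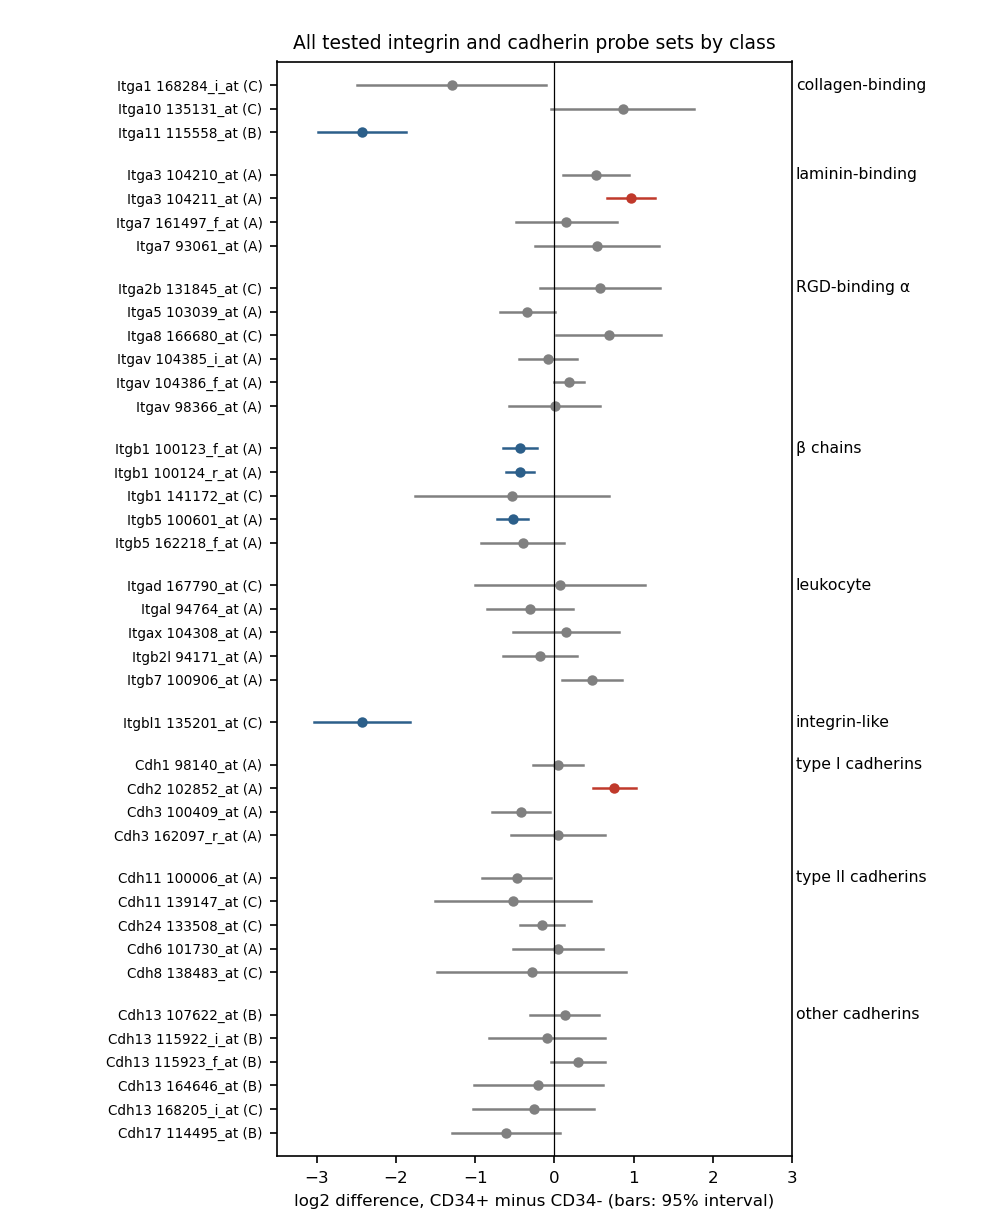
Difference between CD34+ and CD34- clones (horizontal axis, log2 units; points, with bars for the 95% interval) of all 39 tested probe sets, grouped by class, with the chip type as A, B or C in parentheses. Red points rose, blue points fell and grey points were not called: the beta chains lie left of 0, the laminin-binding chains right of it, and Itga11 and Itgbl1 lie near -2.43.

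The leukocyte chains had 10 probe sets for 8 genes, and 5 passed the filter, of which limma called 0. An unadjusted p under 0.05 was found for 1 (Itgb7), and for 2233 of all 7634 probe sets tested on its chip type, MG_U74Av2. Itgb7, the beta chain of the gut-homing pair with alpha 4, read 965, 852 and 1107 against 735, 791 and 543 at 100906_at, without overlap (log2 0.48, SE 0.17, limma adjusted p = 0.0892). Its second probe set read 17.6 to 122 and was not tested. Itgal (187 to 417 over all 6 RNAs), Itgax (145 to 349), Itgad (200.1 to 949) and Itgb2l (178 to 273) differed by -0.31 to 0.15 with overlapping groups. Itgb2, the shared beta chain of leukocyte integrins, read 13.8 to 115 and was not tested, nor was Itgam, the macrophage chain, at 22.2 to 45.6, or Itgae, at 5.46 to 65.5 over 2 probe sets. Of 9 blood cell and macrophage markers, 4 passed the filter and 0 were called. Those that passed were Cd14 (1509 to 2492 over all 6 RNAs), Csf1r (611 to 786), Laptm5 (273 to 608) and Cd68 (247 to 303). Ptprc, Lyz2, Adgre1, Spi1 and Coro1a did not pass. The summed signal of the 9 was 3257 to 3723 in CD34+ and 3042 to 4487 in CD34- RNAs.

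Itgbl1 read 339, 281 and 310 against 1915, 1762 and 2714 on MG_U74Cv2. The CD34- RNAs scattered, but their lowest lay far above the highest CD34+ RNA (log2 -2.43, SE 0.27, limma adjusted p = 0.0319), where 14.1% of all probe sets tested did not overlap. In rank within its own array it stood at the 44.9th to 49.97th percentile in CD34+ RNAs and at the 87.0th to 92.7th in CD34- RNAs, so it passed the filter in both groups. Its call was lost without any 1 RNA (adjusted p = 0.0579 to 0.184) and with the station as a block (log2 -2.31, adjusted p = 0.458, again resting on CD34- RNA 1 alone), while the difference stayed between -2.64 and -2.10 in all 17 settings.

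Among type I cadherins, Cdh2, the N-cadherin of mesenchymal and neural cells, rose. It read 1350, 1502 and 1241 against 755, 811 and 792, and the CD34- RNAs again lay close together (log2 0.75, SE 0.12, limma adjusted p = 0.00364). It was called in all 17 settings, with differences of 0.68 to 0.82. Cdh1, the E-cadherin of epithelia, read 1047, 1007 and 864 against 1046, 974 and 809, nearly the same values in both groups (log2 0.05, 95% interval -0.27 to 0.36, limma adjusted p = 0.856). Cdh3, P-cadherin, read 436, 465 and 383 against 516, 711 and 559 at 100409_at (log2 -0.42, SE 0.16, limma adjusted p = 0.118) and overlapped at 162097_r_at, at 113 to 222 (log2 0.05). Of 6 epithelial markers 3 passed the filter (Cldn7, Epcam and Cldn4) and 0 were called, while Krt8, Krt18 and Cldn3 did not pass. Over all 6 RNAs Cldn7 read 5554 to 6933 and Epcam 2613 to 4446. Together they made up most of the summed epithelial signal (9790 to 10841 against 9496 to 11343). Cdh15, a cadherin of muscle, and Cdh4 did not pass at any of 6 probe sets (4.83 to 147).

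Type II cadherins had 13 probe sets for 9 genes, of which 5 for 4 genes passed, and limma called 0 of them. An unadjusted p under 0.05 was reached by 2233 of all 7634 probe sets tested on MG_U74Av2, and here by 1, Cdh11 at 100006_at. Cdh11, the cadherin of osteoblasts and other mesenchymal cells, read 210, 168 and 206 against 321, 269 and 284 there, without overlap (log2 -0.48, SE 0.19, limma adjusted p = 0.132). On MG_U74Cv2 it read 215, 846 and 815 against 880, 754 and 862, where 1 CD34+ RNA stood apart. The difference there was -0.52 with all RNAs and 0.00 without CD34+ RNA 1. Cdh24 read 9716, 10463 and 9868 against 11517, 11487 and 10463 (log2 -0.15, 95% interval -0.43 to 0.12, limma adjusted p = 0.801). Cdh6 (118 to 186) differed by 0.05 and Cdh8 (43.8 to 378) by -0.29, both with overlap, and a second probe set of Cdh8 read 5.48 to 10.9.

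Endothelial Cdh5 read 16.9 to 24.0 against 26.4 to 97.5 and did not pass the filter. Of 7 other endothelial markers, 2 passed and 0 were called, Pecam1 at 165 ± 86.0 against 329 ± 50.3 and Flt1 at 137 ± 43.2 against 178 ± 63.1 (SD, n = 3 each), with a summed signal of 453 to 693 against 784 to 835. Cdh10, a cadherin of brain, read 372, 297 and 272 against 156, 173 and 86.8 at 105823_at, without overlap. It lay above the 40th percentile on only 2 arrays and was not tested; in a fit without the filter it differed by 0.79 (limma adjusted p = 0.278). Its other probe set read 5.50 to 43.6. Cdh7 (22.6 to 171), Cdh9 (3.23 to 36.0) and Cdh18 (19.1 to 300.3 over 2 probe sets) did not pass.

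Cdh13, the cadherin held to the membrane by a lipid anchor, had the most probe sets. Of 6, 5 passed, the other reading 21.2 to 68.2, and they differed by -0.26 to 0.30, 2 higher and 3 lower, with none called by limma (adjusted p = 0.37 to 0.92) and 0 at an unadjusted p under 0.05. At 115923_f_at it read 1542, 1286 and 1632 against 1157, 1222 and 1169, without overlap (log2 0.30, SE 0.15). The others read 741 to 1052, 158 to 398 and 336 to 652, and at 164646_at CD34+ RNA 3 (288) lay below the other RNAs (539 to 997). Cdh17, a cadherin of gut, read 238, 356 and 243 against 478, 679 and 326 (log2 -0.61, SE 0.30, limma adjusted p = 0.351), and Cdh16, of kidney, was not tested (41.0 to 102).

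Read together, 18 of 39 tested members were higher and 21 lower in CD34+ clones, with a median of -0.09. Groups did not overlap at 16 of the 39, among them 9 that were not called. By chip type that was 11 of 22 on MG_U74Av2 (50%, against 34.5% of all probe sets tested), 2 of 6 on MG_U74Bv2 (33.3% against 23%) and 3 of 11 on MG_U74Cv2 (27.3% against 14.1%). On MG_U74Bv2, 1 of the 2 was Itga11. As it passed the filter through its high group alone, its groups could not overlap, and nothing is read from that share. The exact permutation p of 3 against 3 RNAs cannot go below 0.1. The error differed between chip types: the median SE of the members was 0.18 on MG_U74Av2, 0.27 on MG_U74Bv2 and 0.40 on MG_U74Cv2. Of 8 genes with more than 1 tested probe set, 5 had all of them on the same side of 0: Cdh11, Itga3, Itga7, Itgb1 and Itgb5. Cdh11 at 139147_at changed side without CD34+ RNA 1 (0.00028), and Itga7 at 161497_f_at without CD34- RNA 1 (-0.18). Itgb1 at 141172_at did so with the station as a block (0.65). The share of all genes with such agreement was not counted, so nothing is read from 5 of 8.

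The ligands and anchors of these receptors were read with 1 probe set a gene, from lists chosen with earlier results of these data known. Of 65 tested genes 1 rose and 17 fell, with a median of -0.17. Over 11969 genes represented in the same way 7.9% were called, with a median of 0.02. That share pools the chip types, while most of the 65 genes and all of their calls were on MG_U74Av2. There 14.9% of all probe sets tested were called, 8.21% higher and 6.69% lower, against 1.09% called on MG_U74Bv2 and 0.0936% on MG_U74Cv2. The 7.9% is therefore too low a baseline for these lists. Collagens, the ligands of the Itga11 class, were lower: 9 of 10 fell and the tenth, Col5a2, differed by -0.12 (limma adjusted p = 0.262). Col3a1, the chain of type III collagen, had a log2 difference of -1.81, Col1a1 of -1.10, Col6a2 of -1.002 and Col6a1 of -0.99, and the median of the list was -0.94. Of 7 tested laminin chains 2 fell, Lama5 by 0.70 and Lamb2 by 0.66, and 5 were not called. Of these, Lamc1 (log2 0.24) and Lamb1 (0.05) were higher, and Lamb3 (-0.78), Lama4 (-0.26) and Lamc3 (-0.24) lower. The median of the laminins was -0.26, with 2 higher and 5 lower.

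Among the RGD ligands 1 of 10 was called: Tnc, tenascin C, rose, at 3048 ± 140 in CD34+ against 1777 ± 143 in CD34- RNAs (SD, n = 3 each; log2 0.76, limma adjusted p = 0.00163). Fn1, fibronectin, read 6166 ± 480 against 7517 ± 606 (log2 -0.28, limma adjusted p = 0.0746). Of 5 tested counter-receptors on other cells limma called 0, with 1 (F11r) at an unadjusted p under 0.05. So were 2233 of all 7634 probe sets tested on its chip type, MG_U74Av2. Vcam1 read 717 ± 22.4 against 925 ± 207 (log2 -0.32, limma adjusted p = 0.238).

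Of 19 tested adaptors of the integrin tail 3 fell and 0 rose. The 3 were read on MG_U74Av2, where 6.69% of all probe sets tested fell. Some other adaptors were read on MG_U74Bv2, where 0.401% fell. Fermt2, a kindlin, which activates integrins by their beta tail, read 1405 ± 80.9 in CD34+ and 2127 ± 116 in CD34- RNAs (SD, n = 3 each; log2 -0.58, limma adjusted p = 0.00644), and Lims1, a partner of integrin-linked kinase, fell by 0.63. Vcl, vinculin, fell by 0.41, while Tln1, talin, differed by -0.38 with overlapping groups (limma adjusted p = 0.128) and Ilk by 0.07. The median of the adaptors was 0.02.

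Of 8 catenins and cadherin anchors 2 fell: Ctnnb1, beta-catenin, by 0.48 (limma adjusted p = 0.0116) and Jup, plakoglobin, by 0.71 (limma adjusted p = 0.0293). Both were read on MG_U74Av2, where 6.69% of all probe sets tested fell. Ctnna1, alpha-catenin, which ties beta-catenin to actin, differed by 0.36 the other way without a call (limma adjusted p = 0.0856). Of 6 transcription factors known to repress cadherin genes, Snai2 fell by 0.49 (limma adjusted p = 0.00725). It was read on MG_U74Av2 as well. The other 5 were not called: Snai1 differed by 0.31, Twist1 by 0.01, Zeb1 by -0.10, Twist2 by -0.41 and Zeb2 by -0.73. The median of the 6 repressors was -0.25, with 2 higher and 4 lower.

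**Figure D3:**
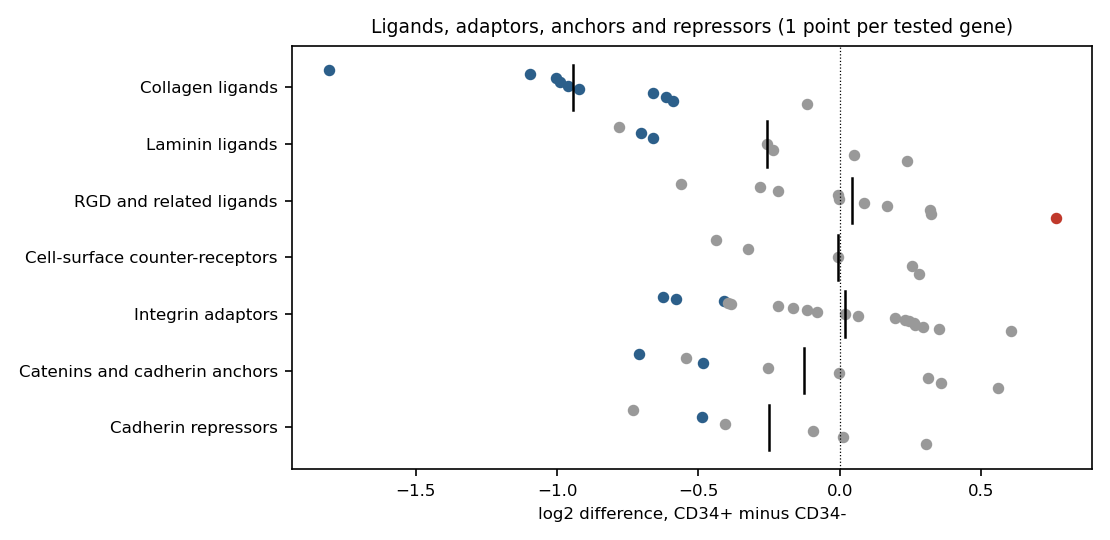
Difference between CD34+ and CD34- clones (horizontal axis, log2 units) of tested ligands, counter-receptors, adaptors, catenins and repressors, 1 point per gene, with black bars at the median of each list. Red points rose, blue points fell and grey points were not called; 9 of 10 collagens are blue and Tnc is the only red point.

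**Figure D4:**
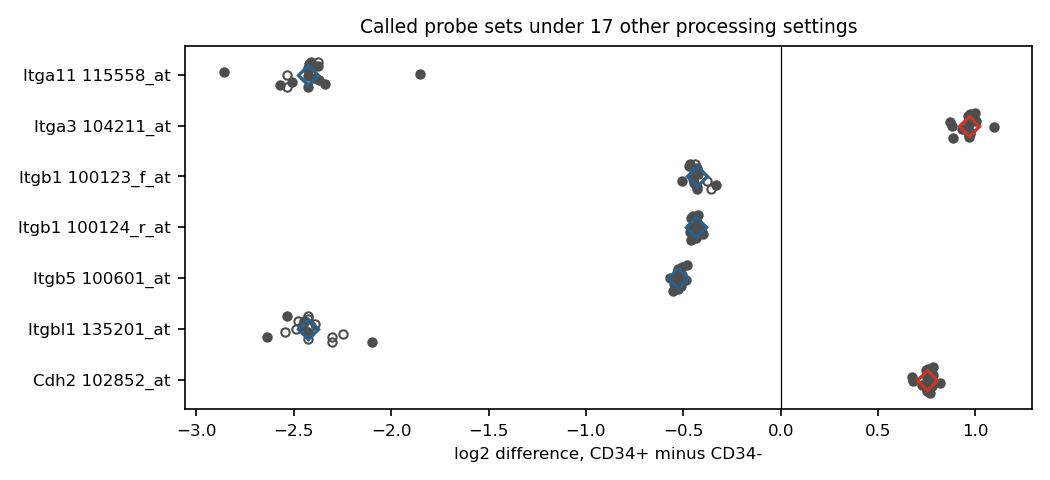
Difference between CD34+ and CD34- clones (horizontal axis, log2 units) of the 7 called probe sets as reported (diamonds) and in 17 other processing settings (circles, filled where the adjusted p stayed under 0.05). No circle crosses 0; open circles lie at Itga11, Itgbl1 and 1 probe set of Itgb1.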

How the data were processed

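Total RNA of 6 bone marrow stromal cell preparations was read on Affymetrix arrays of 3 chip types. The authors deposited a linear signal intensity for each probe set. The submitters' processing notes name MAS5, without a version or settings. The trimmed mean (2% cut at each end) of the CD34- arrays lay below that of the CD34+ arrays by a factor of 14.1 to 120, so deposited intensities of the groups could not be compared directly. This gap followed CD34 status on every chip type. Any part of it left after normalization cannot be told apart from CD34 status, above all in small differences such as those of Itgb1 and Itgb5. Here the 6 arrays of a chip type were quantile normalized without the 66 control probe sets, the 20th percentile (51.5, 106 and 97.9 intensity units on MG_U74Av2, MG_U74Bv2 and MG_U74Cv2) was added, and log2 taken, which understates differences of dim probe sets. Probe sets above the 40th percentile of their own array on at least 3 arrays (7634, 7737 and 7481) were fitted with limma 3.58.1 in R 4.3.3 (lmFit, eBayes with intensity trend, group as the only term), two-sided, with Benjamini-Hochberg adjustment over the chip type. MAS5 detection calls were not used here, so a dim probe set may still carry signal. The fit was also run on simulated data, but no outcome is given here, and the calls do not rest on it.

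Probe sets were named by the platform annotation held in GEO, where 10833, 10581 and 7717 probe sets had a single symbol, 396, 178 and 150 several and 1193, 1652 and 4001 none. Every member was accounted for; by rule, array values were given for called probe sets, the brightest tested one of each class and further probe sets of those genes, and others by range. Array values of other uncalled members, such as Itga1, Itga5, Itga8 and Cdh10, were added after their values were seen. For ligand, adaptor and marker lists a gene was represented by its brightest tested probe set on the first chip type that had one. The members and lists were chosen with earlier results of these data known. Separate cultures or animals are not recorded for the RNAs, so p-values measure no more than their spread, possibly a technical one. Array files gave the fluidics station of each array. Arrays have no read depth, and their number limits the precision. Alternatives tried were other scalings, filters and offsets, no intensity trend, each RNA left out, the station as a block or within it, and the replicate number as a block.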

Additional observations from a re-analysis of the deposited data

How the results depend on the processing

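On MG_U74Av2 the number of called members, 5 as reported, was 4 to 6 in the other settings; the count of 6, without CD34- RNA 3, took in Itga3 at 104210_at. Called partner genes numbered 15 to 22, against 18 as reported. Itga3, Cdh2, Itgb5 and Itgb1 at 100124_r_at kept their calls in all 17 settings, and Itgb1 at 100123_f_at lost its call in 4. On MG_U74Bv2 the 1 call (Itga11) became 0 with the fluidics station as a block and within the station, and 0 to 1 with 1 RNA left out. On MG_U74Cv2 the 1 call (Itgbl1) became 0 without the filter, without the intensity trend, with the station as a block, within the station, with the replicate block, and with any 1 RNA left out (0 to 0). Its adjusted p was then up to 0.458; the cause was not tested. The replicate numbers did not pair the RNAs: same-numbered RNAs correlated at -0.0493 to 0.0701 in their deviations, and not every RNA correlated best with its own number on any chip type. The replicate block gave 5, 1 and 0 calls on the 3 chip types and 19 partner genes, and for Itgbl1 a difference of -2.43 with an adjusted p of 0.118.

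In all, 13 of the 39 tested probe sets changed sign in some setting, none of them called in either. Within the station Cdh3 at 162097_r_at was -0.025, Cdh1 -0.11 and Itgav at 98366_at -0.22. That Itgav probe set was -0.020 with a common trimmed mean, -0.0063 with cyclic loess and -0.0090 with the higher offset. With the station as a block and within it, Cdh13 was 0.0157 and 0.0155 at 115922_i_at and 0.12 and 0.13 at 164646_at, Itgb1 at 141172_at 0.65 and 0.65, and Itgad -0.17 and -0.17. With 1 RNA left out, the ranges were -0.036 to 0.20 for Cdh6, -0.14 to 0.37 for Itgax, -0.23 to 0.029 for Itgav at 104385_i_at, -0.29 to 0.21 at 98366_at, -0.18 to 0.42 for Itga7 at 161497_f_at, -0.11 to 0.26 for Cdh3 at 162097_r_at and -0.055 to 0.12 for Cdh1. They were -0.30 to 0.16 for Cdh13 at 115922_i_at, -0.53 to 0.21 at 164646_at, -0.76 to 0.11 for Cdh8, -0.80 to 0.00028 for Cdh11 at 139147_at and -0.45 to 0.45 for Itgad. Signal limits the rest: 18 of 44 genes had no probe set above the filter.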
